A study of Arabidopsis thaliana with 4 samples.

Results

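The genes described here are those whose signal was at least 2-fold higher in 35S:AtRALF1 seedlings than in the control in each of 2 repeats of an expression array experiment. They were chosen on the log2(signal + 16) scale, with signals under 1 set to 1, by a 35S:AtRALF1 minus control difference of at least 1 in the first repeat and at least 1 in the second. Of 22746 probe sets, 68 met both thresholds, 0.299% of those compared. Left out were the probe set with the widest difference, which has no gene in the platform's table, the ARGOS-like gene ARL, and AT5G19800, the hydroxyproline-rich glycoprotein gene AtHRGP2, which was counted with the extensins. This left 65 members. Because the choice used all 4 arrays, the differences between the genotypes given below describe the members, and no test was made of them. Over the whole table, limma with Benjamini-Hochberg adjustment called 0 probe sets higher (0.0%, threshold 0.05). Without the adjustment, 458 were higher and 522 lower at that threshold. The standard errors given below are those of this fit. For members they are no evidence of a difference, because the choice used the same contrast in the same arrays.

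RALF peptides are secreted signals that raise the pH of the cell wall space and slow cell elongation, and AtRALF1 acts through FERONIA, a receptor kinase with a malectin-like domain. The wall itself is set by enzymes and proteins released into it, among them class III peroxidases, which cross-link or loosen wall polymers, and by proteins that are also made during defence. Whole seedlings, 1 week old, came from plates that were chilled for 48 h and then stood upright at 24 °C under days of 16 h. The 2 control arrays each held equal parts of RNA from wild-type plants and from wild type carrying the empty pART27 vector. The 2 35S:AtRALF1 arrays each held equal parts of RNA from a pair of lines, named 35S:AtRALF1-1-I and 35S:AtRALF1-1-II in the labels, in which the near-ubiquitous 35S promoter drives AtRALF1. The labels do not say whether the repeats are separate plantings, so the spread between them may be technical. In a whole seedling, a change in the share of a cell type and a change in RNA per cell cannot be told apart.

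The arrays held the tissues that the labels name. The 3 measured leaf markers of 10 listed and the 3 measured root markers of 8 were above the 40th percentile of every array, whereas the 3 measured flower and pollen markers of 8 were below it in every array. No seed storage marker was measured, and no marker was a member. The summed signal of the 2 measured root hair markers of 5 listed, the expansin genes EXPA7 and EXPA18, was 198 and 207 in the control, against 268 and 322 in 35S:AtRALF1. That of the root markers was 9640 and 9010 in the control, against 7570 and 6620 in 35S:AtRALF1. The dimmest of these root markers, the class III peroxidase gene AT5G17820, went the other way. It had 304.4 and 477.1 in the control, against 406.1 and 776.7 in 35S:AtRALF1. The 3′ to 5′ signal ratio of the actin control probe sets, a measure of RNA integrity, was 2.13 and 1.46 in the control, against 2.85 and 2.07 in 35S:AtRALF1. For ubiquitin it was 2.77 and 2.07 against 3.1 and 1.9, lower in 35S:AtRALF1 in the second repeat, and for GAPDH 0.79 and 0.716 against 0.92 and 0.807. What part these differences have in the members' values was not tested.

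Among the members, the difference had a median of 1.26 in the first repeat (1.00 to 3.26) and of 1.31 in the second (1.01 to 3.53), where the medians of all probe sets were -0.03 and -0.04. It was larger in the first repeat for 29 members and in the second for 36. The 2 repeats gave differences within 0.25 of each other for 29 members and more than 1 apart for 10. The smaller of the 2 differences was under 1.1 for 19 members and at least 1.5 for 9. Just inside were AT1G50740 at 1.001, 266884_at at 1.006 and 252602_at at 1.009, and just outside were AT1G65500 at 0.999 and 250289_at and 265821_at, both at 0.989. In all 65 members both 35S:AtRALF1 signals were above both control signals, which was the case for 13.3% of all probe sets, and the rule itself favours this. In 38 members each 35S:AtRALF1 array was also at least 2-fold above each control array (0.18% of all probe sets). Any probe set with such a gap meets the rule, so nothing is read from that share.

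**Figure D1:**
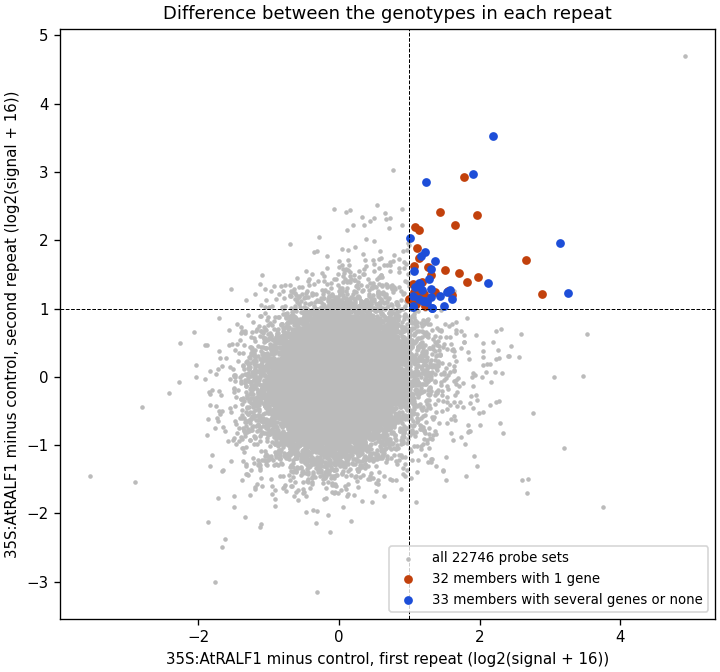
Each point is a probe set, with the 35S:AtRALF1 minus control difference on the log2(signal + 16) scale in the first repeat on the x axis and in the second on the y axis, and dashed lines at the threshold of 1. The 32 members with 1 gene and the 33 with several genes or none fill the upper right corner, together with the 3 probe sets left out, drawn in grey, of which one lies far out at the top right.

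A single gene was given by the platform's table for 32 members, several for 3 and none for 30. For all probe sets the share with 1 gene was 59.4%, against 49.2% of the members. The 32 named genes fall into 8 for enzymes and proteins that are secreted or act at the wall, 2 lectins, 6 for signalling and transcription, 7 of other known families, 2 with a domain of unknown function and 7 for which no role is given here. This sorting was made with the values in view.

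The secreted group held 3 class III peroxidases, enzymes that use hydrogen peroxide to oxidise phenolic compounds of the wall. AT3G49960, a peroxidase of root hair cells, had signals of 12.3 and 2.0 in the control, against 162.9 and 42.7 in 35S:AtRALF1, in the order of the repeats. Both control signals were low, and the difference was 2.66 in the first repeat and 1.71 in the second, while the plain ratios were 13.2 and 21.4. The signals of AT4G36430 were 46.0 and 34.4 in the control against 442.9 and 101.2. It was the first 35S:AtRALF1 array that stood apart here, with a difference of 2.89 in the first repeat and 1.22 in the second. AT1G30870, also of root hair cells, gave the most even values of the 3, with 125.5 and 144.3 in the control against 287.4 and 319.5, or 2.29-fold and 2.21-fold. The root hair markers given above were higher in the same arrays, and the summed signal of the root markers was lower. The root marker AT5G17820, itself a class III peroxidase, was higher in each repeat. What part these marker differences have in the peroxidase values was not tested.

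A berberine bridge enzyme-like oxidase, AT4G20830, which oxidises oligogalacturonides released from pectin, had signals of 158.1 and 137.6 in the control, against 366.7 and 666.1 in 35S:AtRALF1. The second repeat gave the larger difference, 2.15 against 1.14. AT4G01700, of the chitinase family, was at 43.5 and 33.0 in the control, against 117.4 and 92.8 in 35S:AtRALF1. Its ratios of 2.70 and 2.81 were nearly the same in both repeats. Nearly equal values were also seen for PDF2.5, a plant defensin and thus a small secreted cysteine-rich protein, with 94.5 and 84.9 in the control, against 221.4 and 217.6 in 35S:AtRALF1. AT2G18370, a lipid transfer protein, had 123.7 and 114.6 against 275.6 and 253.2, with differences of 1.06 and 1.04 that lie just past the limit. The last of the group, AT1G72060, encodes a serine-type endopeptidase inhibitor. It had signals of 103.0 and 121.4 in the control, against 374.1 and 377.0 in 35S:AtRALF1, a mean log2 difference of 1.61 (standard error 0.22). For this gene the distance between the genotypes was over 3-fold in the ratio of each repeat (3.63 and 3.11), and the arrays within a genotype lay close together.

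Of the lectins, proteins that bind sugars, AT5G18470 is a curculin-like mannose-binding lectin. Its signals were 24.1 and 14.9 in the control, against 83.5 and 70.6 in 35S:AtRALF1. The jacalin-type lectin AT1G33790 was at 52.3 and 40.8 in the control, against 134.2 and 174.5 in 35S:AtRALF1. In both genes the control signals lay near or below the median of the array (46.1 to 50.5) and the 35S:AtRALF1 signals above it (42.0 to 48.5).

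**Figure D2:**
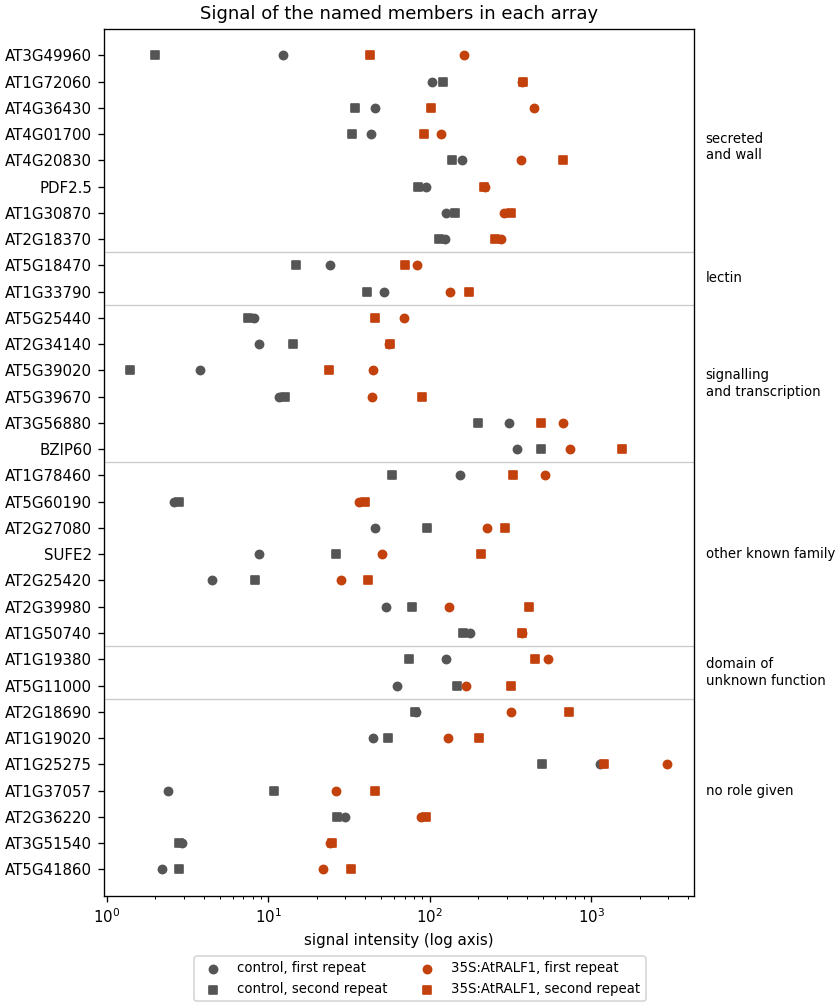
Signal intensity of the 32 named members on a log axis, a row for each gene and a point for each of the 4 arrays (grey, control; orange, 35S:AtRALF1; circle, first repeat; square, second repeat), grouped by role. The orange points lie to the right of the grey ones in every row, with the closest approach in AT1G25275 and AT5G11000.

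In the signalling group the transcription factor gene BZIP60 had the highest signals. BZIP60 is activated by splicing of its mRNA when unfolded proteins build up in the endoplasmic reticulum, and then switches on chaperone genes. Signals were 346.4 and 491.5 in the control, against 740.2 and 1544.2 in 35S:AtRALF1. The second repeat was higher than the first in both genotypes, and the difference between the genotypes was 1.06 in the first and 1.62 in the second. AT3G56880, which encodes a protein with the VQ motif through which such proteins bind WRKY factors, was at 311.5 and 198.9 in the control, against 669.6 and 490.5 in 35S:AtRALF1. These were the only members of this group with control signals above the median of the array.

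The other 4 genes of the group had low control signals, under 34.6 and 32.3, the 40th percentiles of the control arrays. AT5G39020 encodes a receptor-like kinase with a malectin-like domain, of the same family as FERONIA. Its signals were 3.8 and 1.4 in the control, against 44.4 and 23.9 in 35S:AtRALF1, so only the first 35S:AtRALF1 array was above the 40th percentile of its array (32.0 and 28.5 in the 2 arrays). A protein kinase gene, AT5G25440, was at 8.1 and 7.5 in the control, against 69.0 and 45.8 in 35S:AtRALF1. For AT5G39670, an EF-hand protein that binds calcium, the values were 11.7 and 12.6 against 44.0 and 90.2. AT2G34140, a Dof-type zinc finger protein of the cycling Dof factors, which act in the timing of flowering, had 8.7 and 14.3 against 56.0 and 56.4. The ratios of these genes, from 3.76 to 17.1, rest on these low control signals, and the offset of 16 brings the differences down to between 1.12 and 1.89.

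Among the 7 genes of other known families, AT1G78460, a haem-binding protein of the SOUL type, stood highest in the smaller of its differences, at 1.65. It had signals of 154.6 and 58.0 in the control, against 518.3 and 329.2 in 35S:AtRALF1. In both genotypes the second repeat was lower. AT2G27080, an NDR1/HIN1-like protein of a family with members in defence, had 45.6 and 95.9 in the control against 226.2 and 293.5, a mean log2 difference of 1.72 (standard error 0.37). SUFE2 encodes a protein of iron-sulphur cluster assembly, which activates a cysteine desulfurase. Its signals of 8.8 and 26.1 in the control, against 50.9 and 207.2 in 35S:AtRALF1 were higher in the second repeat in both genotypes and the differences between the genotypes were 1.43 and 2.41. AT2G39980, an acyltransferase of the HXXXD type, was at 53.4 and 77.8 against 131.0 and 411.8, and 1 array, the second of 35S:AtRALF1, stood apart. AT1G50740, a membrane protein of the TMEM14C type, gave 177.3 and 161.8 against 370.8 and 375.6.

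The last 2 of these families were below the median in all arrays. AT5G60190, a cysteine protease of the Ulp1 type, had 2.6 and 2.8 in the control, against 36.7 and 39.5 in 35S:AtRALF1. The arrays of each genotype were close to each other, and all 4 signals were below the median of the array. AT2G25420, a WD40 repeat protein, had 4.5 and 8.3 against 28.4 and 41.5.

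The named gene with the highest smaller difference of all was AT1G19380, which has a domain of unknown function, DUF1195. It had signals of 126.6 and 74.3 in the control, against 541.2 and 451.6 in 35S:AtRALF1, 4.27-fold and 6.08-fold, a mean log2 difference of 2.17 (standard error 0.31). The other gene with such a domain, AT5G11000 (DUF868), had 62.7 and 147.4 against 167.5 and 319.6. In this gene the second control array nearly reached the first 35S:AtRALF1 array.

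Of the 7 genes with no role given here, AT2G18690 was at 82.5 and 81.4 in the control, against 320.4 and 725.8 in 35S:AtRALF1, with differences of 1.77 and 2.93. AT1G25275 was the brightest named member, with 1138.4 and 495.0 in the control, against 2952.7 and 1197.0 in 35S:AtRALF1. Here the repeats differed about as much as the genotypes, and the second 35S:AtRALF1 array was barely above the first control array. AT1G19020 had 44.3 and 55.0 against 129.4 and 201.0. AT2G36220, with 29.9 and 26.5 against 88.3 and 95.5, gave differences of 1.18 and 1.39. The control signals of AT1G19020 and AT2G36220 were near or below the median of the array. The remaining 3, AT3G51540, AT5G41860 and AT1G37057, which RefSeq lists as a pseudogene, had control signals of 2.2 to 10.9 and 35S:AtRALF1 signals of 21.8 to 46.1. Of their 35S:AtRALF1 signals, 46.1 for AT1G37057 in the second repeat was the only one above the median of its array.

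The 33 members with several genes or none were brighter in the control than the named ones, with median signals of 129 and 90.6 against 45.8 and 47.9. The highest smaller difference of all members, 2.18, belonged to 262119_s_at, with 236.4 and 83.2 in the control, against 1129.7 and 1127.5 in 35S:AtRALF1. Next among them were 267083_at, with 159.2 and 262.4 against 1534.3 and 1064.4, and 246099_at, with 284.8 and 233.7 against 1113.2 and 1940.0. These 3 probe sets were well above the median of the array in all 4 arrays, and the genotypes were far apart. Of the 3 probe sets with several genes, a pair was bright and 1 was dim in the control, 264279_s_at with 768.1 and 958.2 against 2322.7 and 2344.8, 264365_s_at with 858.6 and 1426.6 against 2149.2 and 3217.8, and 265670_s_at with 33.9 and 29.4 in the control and ratios of 2.95 and 4.94. The widest gap between the repeats was that of 249065_at, with 7.9 and 6.8 in the control, against 212.6 and 37.2 in 35S:AtRALF1. Probe sets marked in the array's design as shared between transcripts numbered 5 of the 65 with the ending _s_at (4.11% of all probe sets) and 1 with _x_at (0.554%), and no named member was among them.

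Signal level varied among the members. Both control signals were below the 40th percentile of their array in 20 of the 65, 13 of them named. That share, 30.8%, was near the 34.8% of all probe sets and sets the members apart in no way. Both 35S:AtRALF1 signals were above the median of their array in 51 (78.5%, against 44.6%). The rule asks for a high 35S:AtRALF1 signal, so nothing is read from that share. Named members above the median in every array were BZIP60, AT1G19380, AT2G18690, AT1G78460, AT1G72060, AT4G20830, AT1G25275, AT3G56880, AT1G30870, PDF2.5, AT2G18370, AT1G50740, AT5G11000 and AT2G39980. In the gene order of RefSeq (TAIR10.1) the named members were scattered. The 2 closest, AT2G18370 and AT2G18690, had 29 protein-coding genes between them.

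How the members differed between the repeats was not used in choosing them, and this was compared with limma with genotype and repeat as terms. Of the 65, 33 were higher in the second repeat and 32 lower, with a median of 0.01 on the log2(signal + 16) scale (-1.23 to 1.25), where the median of all probe sets was -0.03. The error of this fit is the disagreement between the repeats' genotype differences, which the choice of members limits, so nothing is read from the members' calls against those of all probe sets. None passed after limma's adjustment, as for all probe sets (0.0%), and 22 passed the 0.05 threshold before it (33.8%, beside 13.4%). Among the brightest 60% of probe sets, where 2.07% were called higher in the second repeat and 3.43% lower, 3 of 55 members were called higher and 2 lower. Highest in the second repeat was SUFE2, at 1.25, and lowest was AT1G25275, at -1.23. In AT1G25275 the second repeat was lower by similar amounts in the control and in 35S:AtRALF1 (-1.18 and -1.29). A change of at least 2-fold between the repeats, in the same direction in both genotypes, was seen in 1 member downwards and in 1 upwards, the probe set 246935_at, with 149.6 and 327.7 in the control, against 394.3 and 1010.9 in 35S:AtRALF1.

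**Figure D3:**
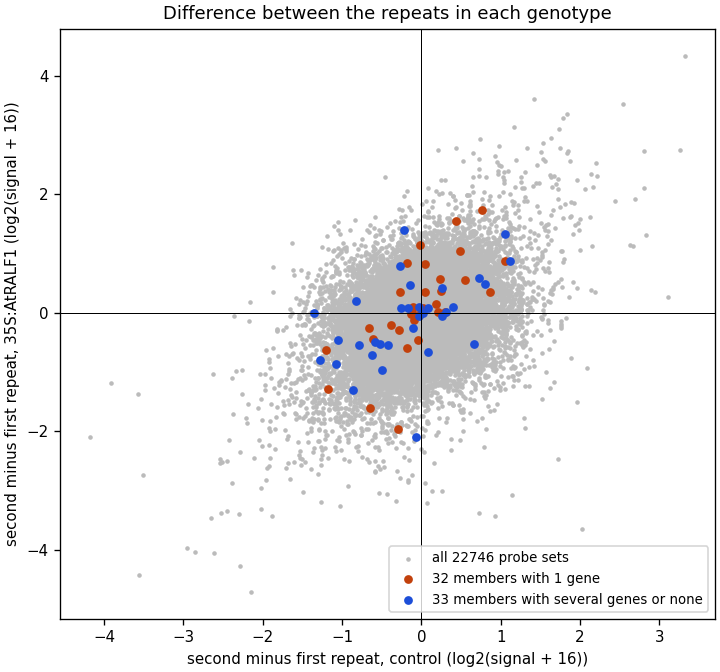
Each point is a probe set, with the second minus first repeat difference on the log2(signal + 16) scale in the control on the x axis and in 35S:AtRALF1 on the y axis, and lines at 0. The members lie on both sides of 0 within the cloud of all 22746 probe sets, with medians of -0.10 for the control and 0.01 for 35S:AtRALF1.

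Genes related to the members are given here from lists of textbook genes, drawn up with earlier results known and described without the members by counts beside those of all probe sets, of which 43.9% had a positive mean difference with a median of -0.04. Limma called none of the list genes in either direction. Root hair genes without extensins had 11 measured of 32 listed, 2 of them the members AT1G30870 and AT3G49960. The other 9 all had a positive difference, with a median of 0.51. They include EXPA7 and EXPA18, the root hair markers given above, so the list and the markers are not separate observations. Of the class III peroxidases of roots, 11 of 20 were measured, among them the same 2 members, and 6 of the other 9 were positive, with a median of 0.36. Among measured genes, both lists share these 2 members and 2 further genes. The next highest value was that of AT4G26010, another peroxidase of root hair cells, at 0.92 (standard error 0.23). Its signals were 181.1 and 225.2 in the control, against 378.8 and 417.4 in 35S:AtRALF1. Its difference was 1.00 in the first repeat and 0.85 in the second, so that only the second missed the rule.

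For the unfolded protein response, a list added after the members were known, 5 of 20 genes were measured, BZIP60 and 4 others. The list was added because BZIP60 is a member. The other 4 had positive differences with a median of 0.40 and standard errors of 0.28 to 0.35. DER1, which helps to move misfolded proteins out of the endoplasmic reticulum, was at 0.70 (standard error 0.28), with 146.3 in both control arrays and 201.5 and 305.2 in 35S:AtRALF1. BZIP28 and BZIP17, membrane-bound transcription factors of the same response, were at 0.46 and 0.13, and the calreticulin gene CRT1b, a chaperone, was at 0.33 (standard errors 0.28, 0.35 and 0.35). In the FERONIA family, also added later, 11 of 16 genes were measured, of which AT5G39020 is a member, and 7 of the other 10 were positive with a median of 0.04. FER itself had 603.0 and 326.1 in the control, against 884.8 and 451.5 in 35S:AtRALF1, a difference of 0.50 (standard error 0.46), and AT5G39030, the gene numbered next to AT5G39020, was at -0.65 (standard error 0.33).

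A further 3 lists were added for families of members. All 6 genes of the PDF2 defensins were measured, and of the 5 besides PDF2.5, 2 were positive, with a median of -0.02 and LCR72 lowest at -0.89. Of the cycling Dof factors 2 of 5 were measured, AT2G34140 and AT1G69570, the latter at -0.46 (standard error 0.33). Of the NDR1/HIN1-like genes 2 of 7 were measured, AT2G27080 and AT1G65690, the latter at -0.20 (standard error 0.25). PDF2.1 also passed 2-fold in the first repeat (1.44) but not in the second (-0.07).

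Lists of stress and hormone responses held no member. Of the touch, calcium and early elicitor genes 9 of 30 were measured and 8 were positive, with a median of 0.42, among them the zinc finger gene STZ and the transcription factor gene WRKY53. STZ, at a mean difference of 0.82 (standard error 0.48), had 72.0 and 57.6 in the control, against 75.8 and 203.0 in 35S:AtRALF1, so that the difference came from the second repeat (0.06 and 1.57). WRKY53, at 0.62 (standard error 0.22), had low signals of 8.2 to 24.9. CML37 and AT2G22880, also counted as positive, had signals of only 0.6 to 7.9 and 1.2 to 3.5, so their sign says little. Of the hypoxia genes 15 of 35 were measured and 9 were positive, with a median of 0.25. AT4G27450 of that list had 174.6 and 314.1 in the control, against 1005.4 and 390.1 in 35S:AtRALF1, so that only the first repeat passed 2-fold. The auxin response list had 6 of 18 measured with 3 positive and a median of 0.14. Those of abscisic acid, cold and dehydration had 5 of 24 measured and none positive, with a median of -0.20. The jasmonate, salicylate, ethylene, iron and phosphate, brassinosteroid, and redox lists had at most 3 measured genes each, with medians of -1.27, 0.25, 1.03, -0.22, 0.14 and -0.02 in that order. The jasmonate genes were the defensins PDF1.2, with 15.9 and 187.7 in the control and differences of -0.04 and -1.60, and PDF1.2b, with 30.5 and 384.8 against 21.5 and 29.2. Their low median rests on the second control array, since the difference of PDF1.2b in the first repeat was also only -0.31. For the ethylene list the only gene was RTE1, a regulator of the ethylene receptor, with 86.3 and 58.3 in the control, against 154.9 and 169.1 in 35S:AtRALF1.

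**Figure D4:**
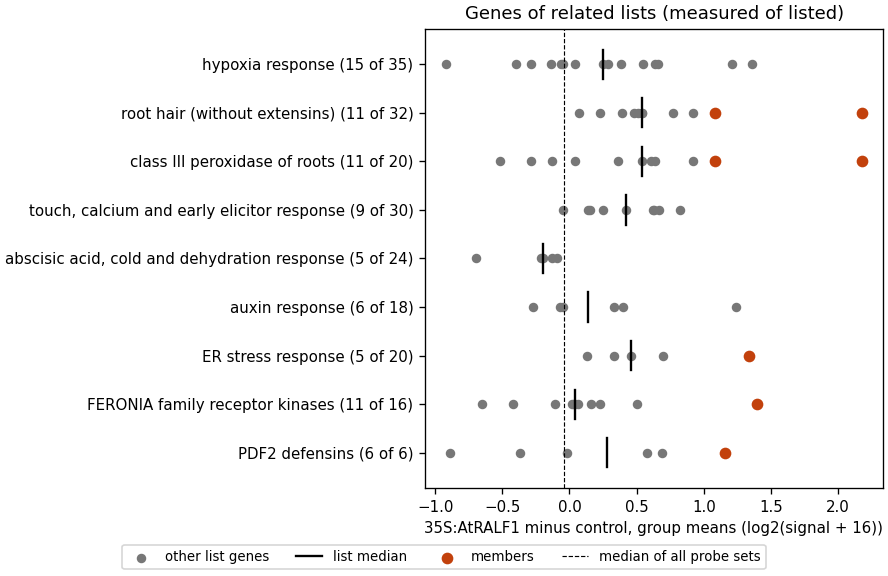
Mean 35S:AtRALF1 minus control difference on the log2(signal + 16) scale for each measured gene of the 9 lists with at least 5 measured genes (orange, members; grey, other list genes; bar, list median; dashed line, median of all probe sets at -0.04). In the lists that hold members, these have the highest means, which the rule itself favours, so nothing is read from that rank. The other genes of the root hair and unfolded protein lists also lie to the right of the dashed line.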

How the data were processed

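The deposited values are signal intensities from 4 Affymetrix arrays, 1 per sample, on a linear scale, which had been brought to a common level by the authors (trimmed mean of 125.0 in every array, with 2% cut at each end). How probe sets were summarized is not stated in the sources read, and detection calls were not used. The values were used as deposited. The 64 array controls were left out, signals under 1 became 1, and log2(signal + 16) was used, a scale that understates changes of dim genes. Groups and repeats were compared over all probe sets with limma 3.58.1 in R 4.3.3 (intensity trend, Benjamini-Hochberg adjustment, threshold 0.05), tested on simulated data. Precision is limited by having 4 arrays: an exact two-sided permutation test of 2 against 2 cannot go below p = 0.333. Genes were named from the platform's table, updated through RefSeq (TAIR10.1, names only), where exactly 1 gene was given. No sequences were used. Where a list gene had several probe sets, the brightest on average stood for it.

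All members with 1 gene are named. The members and lists were chosen with earlier results of these data known, and 5 of the 17 lists were added after the members had been seen. Alternatives were offsets of 1 and 64, cyclic loess and quantile normalization, the brightest 60% of probe sets, 1.5-fold and 3-fold, no variance trend, a replicate block and each array left out.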

Additional observations from a re-analysis of the deposited data

How the results depend on the processing

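Which genes met the rule depended on the offset and the fold. With an offset of 1 in place of 16, 347 probe sets met it, with 64 only 17, at 1.5-fold 358 and at 3-fold 7. All 65 members were among the 347 and the 358, and all of the 17 and the 7 were members. The 17 include the named genes AT1G19380, AT2G18690, AT1G78460, AT1G72060, AT2G27080 and AT1G25275. At 3-fold AT1G19380, AT2G18690, AT1G78460 and AT3G49960 were kept. With quantile or cyclic loess normalization 69 met it, 61 of them members, and among the 60% with the highest signal 55. The 65 members without overlap became 38 when each 35S:AtRALF1 array had to be 2-fold above each control array. The median difference of the members, 1.36, was 1.74 with an offset of 1 and 0.96 with 64, and lay between 1.33 and 1.46 with any 1 array left out. With the replicate block it was again 1.36, and 1 probe set was called over the whole table, as among the 60% with the highest signal, in place of 0. With any 1 array left out it was 0. What the repeat numbers stand for is not labelled. Deviations of same-numbered arrays from their group means correlated at 0.392 over probe sets, and 2 pairs are too few to settle the pairing. Between the repeats 5 members were called among the 60% with the highest signal, in place of 0 over all, and the cause was not tested. The choice of members limits the error of this fit, so these calls are no independent evidence.

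Of 256 values of the 32 named members under the alternatives, none changed sign. Every member had both 35S:AtRALF1 signals above both control signals, so no offset or left-out array could have changed a sign. Nothing is therefore read from this count. With 1 array left out the values ranged from 0.60 to 3.04. Those resting most on 1 array were AT4G36430, at 1.07 without 35S:AtRALF1 replicate 1, SUFE2, BZIP60 and AT2G39980, at 1.05, 0.82 and 0.87 without 35S:AtRALF1 replicate 2, AT5G11000, at 0.60 without control replicate 1, and AT1G25275, at 0.66 without 35S:AtRALF1 replicate 1. AT3G49960 was at 1.38 without 35S:AtRALF1 replicate 1. With an array left out, the repeats could not be tested, as no residual degree of freedom remained. An offset of 64 brought dim members such as AT5G39020 and AT5G60190 to 0.55 and 0.61.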
